A study of Mus musculus with 79 samples.

Results

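The ventral hippocampus (vHipp) of mice that had gone through chronic social defeat stress (CSDS) was compared with that of unstressed controls (CTRL), all given saline. The comparison was defined by the labels alone: 10 vHipp libraries of CSDS mice and 10 of CTRL mice, 1 library per mouse, 20 of the 79 libraries in the series. All animals were non-sibling wild-type (WT) male CD-1 mice, 9–10 weeks old, kept in social groups of 4. CSDS mice met an aggressive resident CD1 male on each of 21 days and went back to their own group after every defeat, whereas CTRL mice lived in their groups in that room without defeat. Each mouse then spent 4 days in an automated group arena, was given 1 saline injection, and was killed 7 days later, so every mouse in both groups carried the injection and the arena housing. Total RNA came from 1 mm punches of 200 µm brain slices, and poly(A) libraries were read per gene. The values are counts. The 20 libraries held 11782570 to 37421747 counts and detected 23778 to 27320 genes. Levels are given in CPM, edgeR's measure of a gene's count relative to the size of its library, with the library sizes scaled by trimmed mean of M values (TMM) factors, and LFC is the log2 fold change of CSDS against CTRL, so a positive LFC is higher after defeat.

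The ventral hippocampus is the part of the hippocampus with the densest links to amygdala, hypothalamus and prefrontal cortex, and it is known for its role in anxiety and stress responses. Its granule cells (dentate gyrus) and pyramidal cells (CA fields) lie in thin layers beside the lateral ventricle, where the choroid plexus hangs free. The choroid plexus is a sheet of ciliated epithelium that makes cerebrospinal fluid, and its cells fill much of their mRNA with Ttr, the transcript of transthyretin, a carrier of thyroid hormone and retinol. A punch that takes in a shred of it therefore carries Ttr with the other genes of that epithelium.

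The tissue label was checked with markers of the hippocampus. Prox1, the transcription factor of granule cells, lay between 47.8 and 279 CPM in the 20 libraries and at most at 34.7 CPM in the 20 libraries of medial prefrontal cortex (mPFC) from the same mice. C1ql2, a secreted protein of mossy fibre synapses, lay between 19.7 and 95.3 CPM against at most 10.4 CPM in mPFC. The desmosome gene Dsp was at least at 29.9 CPM in vHipp and at most at 6.94 CPM in mPFC. Every vHipp library was above every mPFC library for these 3 dentate gyrus genes, which were chosen for print after the values were seen. Tdo2, Fibcd1, Iyd, Grik4, Lct and Nnat also lay higher in every vHipp library than in any mPFC library. Grik4, a gene of CA3, was at least at 65.7 CPM in vHipp and at most at 37.1 CPM in mPFC. The remaining markers looked up did not separate the regions or were higher in mPFC. Trpc6 ran from 8.86 to 44.7 CPM in vHipp and from 13.5 to 32.2 CPM in mPFC. Coch and Dkk3, also genes of CA3, reached 14.1 and 501 CPM in vHipp against at least 34.2 and 570.01 CPM in mPFC. With no dorsal samples in the series, the ventral part of the label was not checked.

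2 of the 10 CSDS libraries stood apart before any test. Ttr was at 654 CPM in CSDS mouse 9 and at 66.1 CPM in CSDS mouse 13. The other 8 CSDS libraries lay between 0 and 1.29 CPM, and the 10 CTRL libraries between 0 and 7.61 CPM, the highest being CTRL mouse 38. The medians were 0.339 CPM in CSDS and 0.245 CPM in CTRL, so the groups overlapped except for those 2 animals. Ttr had no read in 2 CSDS libraries and in 1 CTRL library. Among the 10 CSDS mice given ketamine the highest Ttr level in vHipp was 9.502 CPM, and in the mPFC of the saline mice it was 10.8 CPM.

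**Figure D1:**
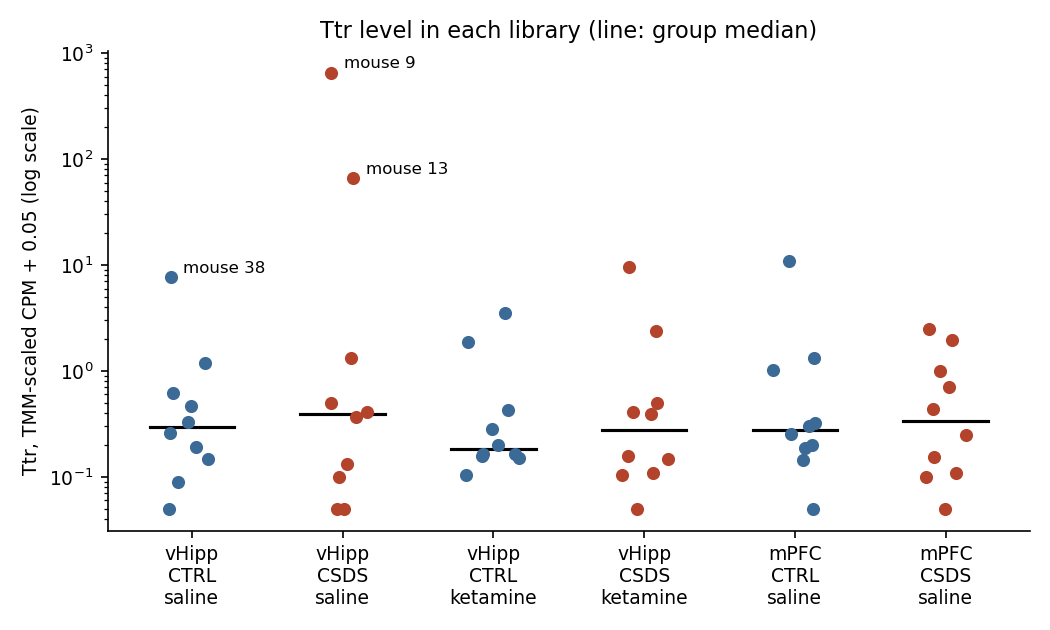
Ttr level in each library, as TMM-scaled CPM plus 0.05 on a log axis, for the saline and ketamine groups of vHipp and the saline groups of mPFC. Each point is 1 library and each line a group median. CSDS mice 9 and 13 sit at 654 and 66.1 CPM, and the medians of the 2 saline vHipp groups are 0.339 and 0.245 CPM.

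Across the whole transcriptome no gene passed the adjusted threshold. With edgeR's quasi-likelihood test over 28991 genes, 0 genes (0%) had a Benjamini-Hochberg adjusted p under 0.05, and the smallest adjusted p was 0.346, shared by Ttr, Clic6, Tmem72 and Kcns3. DESeq2 without a covariate also gave 0. At an unadjusted p under 0.05, 1615 genes (5.57%) differed, 890 higher (3.07%) and 725 lower (2.5%) in CSDS. There were 0 genes (0%) whose CSDS and CTRL values did not overlap at all. The data nevertheless bounded most genes closely. Of 15540 genes with a mean of at least 1 CPM, 84.4% had a 95% interval of the LFC inside ±0.5 and 98.6% inside ±1. Only 14 of the 819 genes of that level with an unadjusted p under 0.05 had an LFC of 1 or more in size, and 12 of those 14 were higher.

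The choroid plexus list held 24 genes, all measurable. Of these, 11 were higher and 0 lower at an unadjusted p under 0.05, against 3.07% of all genes higher, and their median LFC was 0.75 against -0.01 for all genes tested. Mouse 9 had the highest value of all 20 mice for 21 of the 24 genes and for each of those 11. Mouse 13 was the next highest for 7 of the 11. The summed level of the list was 788 CPM in mouse 9 and 121.2 CPM in mouse 13. Its median was 41.4 CPM over all 10 CSDS mice and 40.4 CPM over the CTRL mice, whose range was 35.3–54.96 CPM.

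Ttr had an LFC of 6.12 (SE 1.26, edgeR adjusted p = 0.346), and its unadjusted edgeR p was the smallest of all genes tested. A permutation test of Ttr alone compared the mean log2(CPM + 0.5) of 10 CSDS and 10 CTRL mice (2-sided, 100000 resamples). It gave an unadjusted p of 0.356, with 6 of 10 CSDS mice above the CTRL median. The 0.346 is adjusted over 28991 genes and the 0.356 is not, so these values are not on one scale. Clic6, an intracellular chloride channel protein, was at 10.8 CPM in mouse 9 and 2.78 CPM in mouse 13. The other CSDS mice reached at most 0.785 CPM and the CTRL mice 0.698 CPM. Its LFC was 2.34 (SE 0.51, adjusted p = 0.346 with edgeR). Tmem72, a membrane protein gene, was at 7.43 CPM in mouse 9 and 2.29 CPM in mouse 13. All other 18 mice were at or under 0.363 CPM for it, and its LFC was 3.77 (SE 0.82). The genes of ion transport followed the same animal. Slc4a5, a sodium bicarbonate cotransporter, was at 4.13 CPM in mouse 9 and at most at 0.436 CPM in any other mouse. Kcne2, an auxiliary potassium channel subunit, was at 2.85 CPM in mouse 9, with 0.251 CPM as the next CSDS value. Kcnj13, the inward rectifier Kir7.1, was at 3.41 CPM there and at 0.854 CPM in the next CSDS mouse. Folr1, the folate receptor that carries folate into the fluid, was at 5.70 CPM in mouse 9 and 0.926 CPM next. Of the genes named here Kl (klotho) was the exception in level: its CTRL median was 21.3 CPM and its CSDS median 21.8 CPM. With an LFC of 0.15 (SE 0.11) it did not separate the groups. Over the whole list 21 of the 24 genes had a positive LFC, and the lowest LFC was -0.41.

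**Figure D2:**
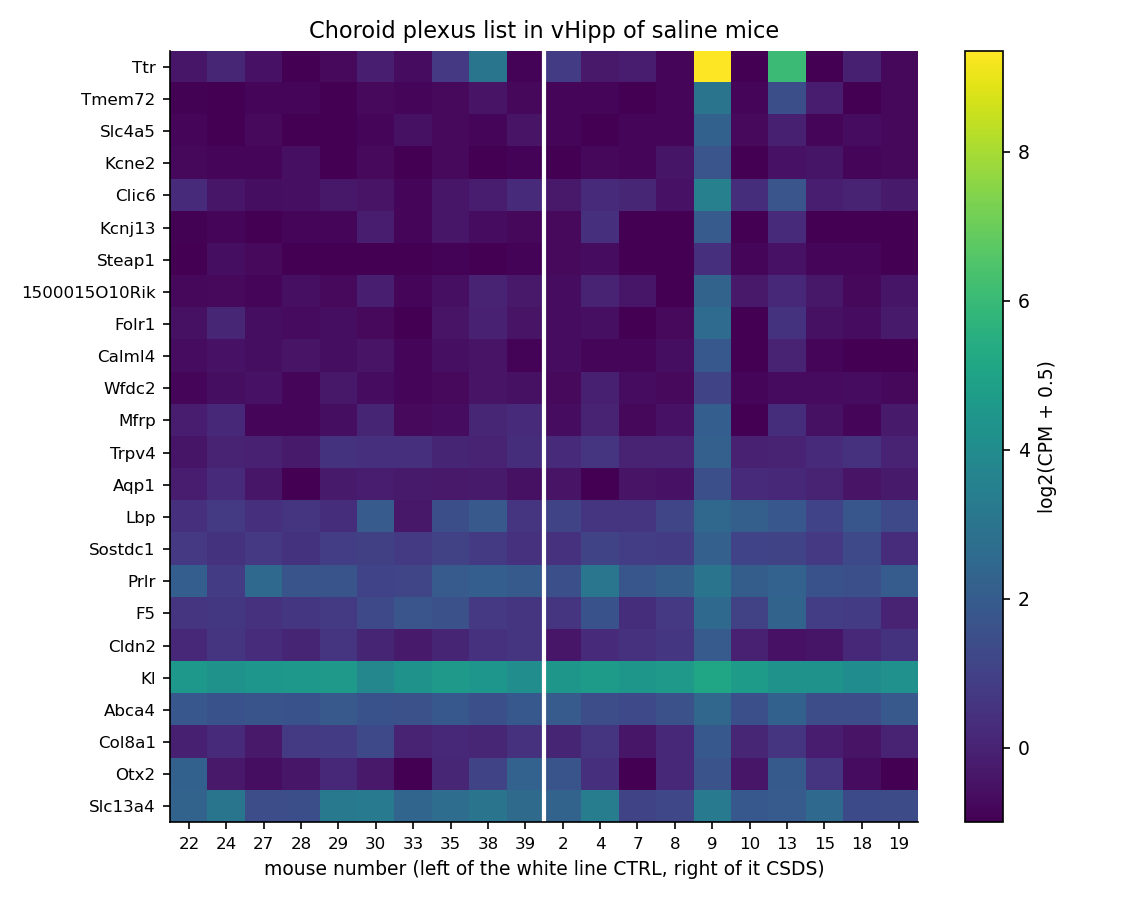
The 24 genes of the choroid plexus list (rows, ordered by LFC) in the 20 saline vHipp libraries (columns, by mouse number), coloured by log2(CPM + 0.5). The column of mouse 9 stands out in most rows and that of mouse 13 in the upper rows, while Kl is at a similar level in all mice.

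Genes of the ventricle wall were also highest in the library of mouse 9. The ependymal list, genes of the ciliated cells that line the ventricle, had 8 members tested, 1 of them higher at an unadjusted p under 0.05 and 0 lower, against 3.07% and 2.5% of all genes, and with 1 mouse left out the number higher ran from 0 (without mouse 9) to 5. Its median LFC was 1.21, and mouse 9 was highest of all mice for 6 of the 8. The summed level of the list was low, with medians of 9.04 CPM in CSDS and 8.93 CPM in CTRL. It was 15.5 CPM in mouse 9, against at most 11.2 CPM in CTRL. Dynlrb2, a dynein light chain of moving cilia, was at 0.782 CPM in mouse 9 and at most at 0.252 CPM in any other CSDS mouse, with an LFC of 1.75 (SE 0.60).

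The promoters of the genes in these lists were searched for the half-site of the RFX factors, which drive genes of cilia. The letters searched were GTTGCC on either strand, which is GGCAAC when read the other way, in the 300 bases from 250 before to 50 after each RefSeq start site (GRCm38.p6). They occurred in 12.5% of all 32851 promoters, in 3 of the 6 ependymal genes with an entry and in 4 of the 18 choroid plexus genes with an entry. A second set of letters, TAATCC on either strand, the core bound by OTX2, the homeobox factor of this epithelium, occurred in 7.06% of all promoters and in 3 of those 18 genes. The 3 genes of both lists that had an unadjusted p under 0.05 and a GTTGCC match are shown with the match in capitals, 5′ to 3′ on the strand of the gene, since mouse 9 had the highest level of each. Kcne2 lies on the plus strand at chr16:92292139-92292438, Steap1 on the minus strand at chr5:5749268-5749567, and Dynlrb2 on the plus strand at chr8:116504765-116505064. In all of them the match lies before the start site.
Kcne2: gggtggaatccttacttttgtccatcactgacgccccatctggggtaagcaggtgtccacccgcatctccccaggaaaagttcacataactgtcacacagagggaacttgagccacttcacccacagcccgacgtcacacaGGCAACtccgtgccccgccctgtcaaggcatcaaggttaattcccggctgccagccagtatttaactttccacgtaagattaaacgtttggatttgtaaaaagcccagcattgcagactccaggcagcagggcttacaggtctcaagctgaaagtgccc
Steap1: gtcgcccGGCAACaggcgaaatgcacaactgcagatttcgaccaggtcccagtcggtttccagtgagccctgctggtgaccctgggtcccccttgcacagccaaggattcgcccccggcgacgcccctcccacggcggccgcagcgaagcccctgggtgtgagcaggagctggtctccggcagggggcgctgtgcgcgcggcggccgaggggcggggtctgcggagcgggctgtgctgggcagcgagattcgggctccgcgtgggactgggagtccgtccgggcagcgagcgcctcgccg
Dynlrb2: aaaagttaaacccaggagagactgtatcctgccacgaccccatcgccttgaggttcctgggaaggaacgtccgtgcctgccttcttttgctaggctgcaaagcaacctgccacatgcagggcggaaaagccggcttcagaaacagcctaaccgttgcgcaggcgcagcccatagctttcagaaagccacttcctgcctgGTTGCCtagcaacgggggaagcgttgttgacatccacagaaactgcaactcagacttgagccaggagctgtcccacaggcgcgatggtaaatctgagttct

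CSDS mice 9 and 13 were left out because their Ttr level was the highest, so a fall of the choroid plexus values without them follows from that choice, and the values are given as a description. The LFC of Ttr was then -1.59, with CTRL mouse 38, the highest CTRL mouse, kept in. On the log2(CPM + 0.5) scale the mean difference in Ttr between the 8 CSDS and 10 CTRL mice was -0.38 (exact permutation p = 0.498, 2-sided). The list had 0 genes higher and 1 lower against 2.21% and 2.32% of all 28797 genes, and its median LFC was -0.04. The ependymal median became -0.09 over the 7 genes then tested, with 0 genes called. Leaving out mouse 9 alone left 3 of the 24 choroid plexus genes higher and a median LFC of 0.13. A further fit kept all 20 mice and was given each library's choroid score, the mean log2(CPM + 0.5) of the 24 genes. The 24 genes make up the score, so their values in that fit are partly set by its construction and are given as a description: Ttr had an LFC of 0.07, and 1 gene of the list was higher and 2 were lower. The background of the fit with the score was 2% of all genes higher and 2.59% lower.

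In mouse 9 the high values reached beyond the list. It held the highest of the 20 values for 27.5% of the 890 genes higher in CSDS and for 10.9% of all genes tested. The other 8 CSDS mice held from 26 to 198 of the 890, and mouse 13 lay within that range, with 9.10% of the 890 and 3.63% of all genes. Any CSDS mouse can hold a larger share of the 890 than of all genes, since the 890 are those higher in CSDS. When both animals were left out, 1304 genes had an unadjusted p under 0.05, 637 higher and 667 lower, and 0 passed the adjusted threshold (smallest adjusted p 0.820, edgeR). Of the 890 higher genes 486 kept an unadjusted p under 0.05 and their direction, and 447 of the 725 lower genes did. Only 5 of the 890 and 0 of the 725 changed sign. With 2 fewer mice some loss follows from the smaller number alone. Leaving out mouse 9 by itself kept 602 of the 890, fewer than leaving out any other single mouse, for which the count ran from 617 (CSDS mouse 4) to 809, with 729 for mouse 13. With the choroid score in the fit 528 of the 890 and 544 of the 725 were kept. In that fit 1 gene, Gm12580, passed the adjusted threshold (edgeR adjusted p = 0.0269).

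Outside the choroid plexus list, Kcns3 had the smallest unadjusted p. Kcns3 encodes Kv9.3, a silent subunit that alters the currents of Kv2 potassium channels (ENSMUSG00000043673, GRCm38 chr12:11090202-11151056, minus strand). It ran from 7.80 to 10.48 CPM in CSDS (median 8.35) and from 4.11 to 7.96 CPM in CTRL (median 6.72). 7 of the 10 CSDS mice lay above every CTRL mouse, and all 10 above the CTRL median. The LFC was 0.41 (SE 0.09, 95% interval 0.23 to 0.59, unadjusted p = 4.77e-05, edgeR adjusted p = 0.346). It was 0.43 without mice 9 and 13 and 0.40 with the choroid score in the fit. CSDS was higher in each of the 5 sets into which the library numbers divide the mice, by 0.16 to 0.58 on the log2(CPM + 0.5) scale. With the set as covariate in DESeq2 its adjusted p was 0.0307, and it was the only gene under 0.05 there. In the other fits its adjusted p was above 0.05. Of the 19 voltage-gated potassium channel genes tested it was the only one higher at an unadjusted p under 0.05. Kcna4 (LFC -0.20, SE 0.09) and Kcnc4 (LFC -0.30, SE 0.13), both channels of fast, inactivating currents, were lower at that level, against 2.5% of all genes lower, and the median of the list was -0.04. Neither was at that level without mice 9 and 13, nor when CSDS mouse 4, CSDS mouse 9 or CTRL mouse 38 alone was left out.

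Egfl6, a secreted protein with EGF repeats, ran from 1.27 to 3.28 CPM in CSDS and from 0.837 to 1.78 CPM in CTRL. Its LFC was 0.68 (SE 0.18, edgeR adjusted p = 0.762), in each of the 5 sets the CSDS mean was higher, and the LFC was also 0.68 without mice 9 and 13. Itgam, the integrin chain CD11b of microglia and myeloid cells, ran from 5.24 to 8.77 CPM in CSDS and from 3.15 to 5.54 CPM in CTRL. 9 of 10 CSDS mice were above every CTRL mouse. Its LFC was 0.55 (SE 0.15, edgeR adjusted p = 0.762) and 0.49 without the 2 mice. Arc, an immediate early gene of active synapses, ran from 42.6 to 72.3 CPM in CSDS (median 61.2) and from 35.5 to 70.5 CPM in CTRL (median 44.9), with an LFC of 0.38 (SE 0.12, edgeR adjusted p = 0.825). The overlap came from CTRL mice 22 and 27 and from CSDS mouse 7. Cadps2, a priming factor of dense-core vesicles, had an LFC of 0.30 (SE 0.10), and Tmem169, a membrane protein gene, one of 0.18 (SE 0.06).

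**Figure D3:**
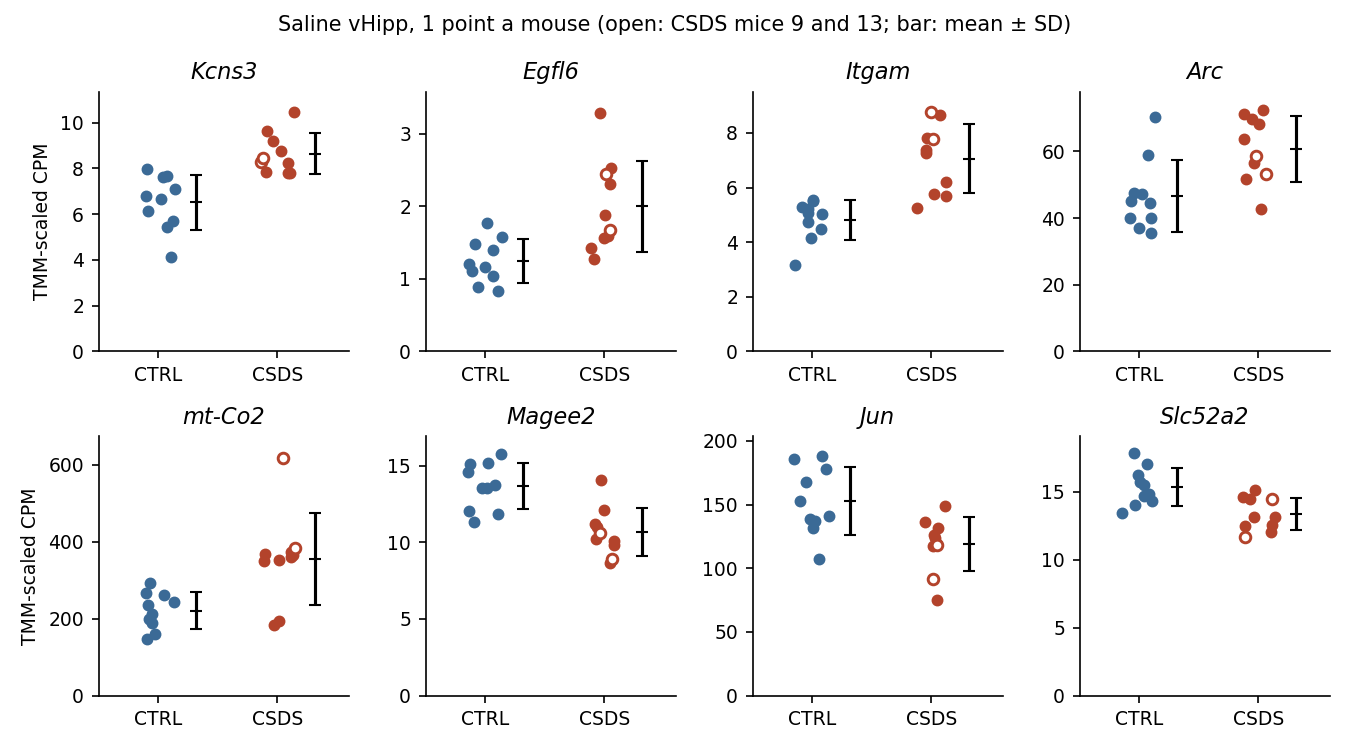
TMM-scaled CPM of 8 genes in vHipp of saline mice, 1 point per mouse, with the mean and SD of each group as a bar. Open points are CSDS mice 9 and 13. In the Kcns3 panel the lowest CSDS value is 7.80 and the highest CTRL value 7.96 CPM, and mouse 9 leads the mt-Co2 panel at 619 CPM.

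The genes with the smallest p among those lower in CSDS had an LFC between -0.20 and -0.65. Magee2, a gene of the MAGE family, ran from 8.63 to 14.1 CPM in CSDS and from 11.3 to 15.8 CPM in CTRL. 8 of 10 CSDS mice were below every CTRL mouse, and the LFC was -0.36 (SE 0.09, edgeR adjusted p = 0.762). Slc52a2, a riboflavin transporter, had a mean of 13.4 ± 1.21 CPM (SD, n = 10) in CSDS and 15.4 ± 1.39 CPM (SD, n = 10) in CTRL, an LFC of -0.20 (SE 0.05). Tert, the catalytic part of telomerase, ran from 1.34 to 3.62 CPM against 2.70 to 4.98 CPM, with an LFC of -0.50 (SE 0.15). Ctu1, which takes part in tRNA thiolation, had an LFC of -0.27 (SE 0.08), and Efcc1 one of -0.30 (SE 0.09). Adamts15, a secreted metalloproteinase, had an LFC of -0.52 (SE 0.16), and Gpr182, a receptor of endothelial cells, one of -0.64 (SE 0.20). Jun, the AP-1 subunit, ran from 75.5 to 148.8 CPM in CSDS and from 106.9 to 188 CPM in CTRL, with an LFC of -0.36 (SE 0.11, edgeR adjusted p = 0.825). The pseudogene Gm5903 had an LFC of -0.65 (SE 0.18). None of these had an adjusted p under 0.05, and each kept its sign without mice 9 and 13, the smallest in size being -0.19 for Slc52a2.

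All 13 mitochondrially encoded mRNAs had a positive LFC, 8 were higher at an unadjusted p under 0.05 and 0 lower, against 3.07% and 2.5% of all genes, and the median was 0.31 against -0.01 for all genes. The same shares apply to the other lists of this paragraph. Their summed level ran from 31445 to 45137 CPM in CSDS and from 25774 to 34957 CPM in CTRL, with medians of 35962 and 30312 CPM. mt-Co2, a subunit of cytochrome c oxidase, ran from 183 to 619 CPM in CSDS and from 148.02 to 293 CPM in CTRL. Its LFC was 0.68 (SE 0.18, edgeR adjusted p = 0.762). mt-Co3 had an LFC of 0.62 (SE 0.18), mt-Atp6 one of 0.59 (SE 0.19), mt-Nd4l one of 0.53 (SE 0.18) and mt-Co1 one of 0.27 (SE 0.10). Mouse 9 was the highest for mt-Co2 and mt-Co3. Without mice 9 and 13, 7 of the 13 were higher at that level with a median LFC of 0.23, and with the choroid score in the fit the count was also 7 and the median 0.23. 4 of the 10 leading higher genes were pseudogenes. Gm28437 (LFC 0.74, SE 0.20) and Gm29216 (LFC 0.62, SE 0.17) lie on chromosome 1 in a nuclear copy of mitochondrial DNA, and may share reads with the mitochondrial genes. This was not tested, since the aligner and the counter are not given in the sources used here, and it leaves the values of these pseudogenes and of the mitochondrial genes they copy uncertain. Gm4076 (LFC 0.68, SE 0.18) is a processed pseudogene, and whether it shares reads with its parent gene was not tested either. Of 69 nuclear genes of oxidative phosphorylation 64 had a positive LFC, but 1 was higher and 0 lower at an unadjusted p under 0.05, with a median of 0.06. The number higher was 0 without mice 9 and 13, and with 1 mouse left out it ran from 0 (CSDS mouse 9, 18 or 19, or CTRL mouse 30, 35 or 38) to 11 (CTRL mouse 24), with 6 for CTRL mouse 22. Of 88 cytosolic ribosomal protein genes 83 had a positive LFC and 22 were higher, with 0 lower and a median LFC of 0.11. Without mice 9 and 13, 13 of the 88 were higher. With 1 mouse left out the count ran from 11 (CSDS mouse 18) to 49 (CTRL mouse 24), with 13 for CTRL mouse 28, 14 for CSDS mouse 9 and 45 for CSDS mouse 8. Rpl23a, a protein of the large subunit, had a mean of 122.8 ± 11.3 CPM (SD, n = 10) in CSDS and 104.5 ± 11.3 CPM (SD, n = 10) in CTRL, an LFC of 0.23 (SE 0.07). Whether library composition has a part in these shares was not tested.

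The lists of microglia, endothelial cells, mural cells and red blood cells had positive median LFCs, and that of other leukocytes had a median of -0.08, or -0.26 without mice 9 and 13. In bulk tissue, more cells of a type and more RNA per cell cannot be told apart. All 12 microglial genes had a positive LFC, 4 were higher at an unadjusted p under 0.05 and 0 lower, with a median LFC of 0.24. For this and the next lists the share over all genes was 3.07% higher and 2.5% lower. With 1 mouse left out the microglial count ran from 2 (CSDS mouse 4, 9 or 13, or CTRL mouse 27, 29 or 38) to 7 (CSDS mouse 7). Besides Itgam these included Siglech (LFC 0.39, SE 0.14) and Cx3cr1, the fractalkine receptor (LFC 0.28, SE 0.13). The summed level of the list ran from 281 to 449 CPM in CSDS and from 226 to 348 CPM in CTRL. Without mice 9 and 13, 2 of 12 were higher and the median was 0.20. All 10 endothelial genes had a positive LFC and 3 were higher, namely Flt1, a VEGF receptor (LFC 0.31, SE 0.14), Slco1a4, an organic anion transporter of the blood-brain barrier (LFC 0.29, SE 0.13), and Abcb1a, the P-glycoprotein pump (LFC 0.29, SE 0.14). None of the 10 was higher at that level without mice 9 and 13, nor when any one of CSDS mice 2, 4, 9, 13 and 15 or CTRL mouse 38 was left out. All 10 were still positive without mice 9 and 13, with a median of 0.15 against 0.22 with all mice, and with 1 mouse left out the median ran from 0.16 to 0.27. Of 7 mural cell genes 3 were higher, Kcnj8 and Abcc9, which form one potassium channel of pericytes (LFC 0.60, SE 0.19 and LFC 0.36, SE 0.17), and Rgs5, a pericyte marker (LFC 0.38, SE 0.13). The mural list had 5 of 7 positive, and without mice 9 and 13 it had 1 higher and 1 lower. Of 5 red blood cell genes 3 were higher with a median LFC of 0.54. This rested on CSDS mouse 4, whose summed level was 273 CPM against at most 105.3 CPM in the other CSDS mice and 116.5 CPM in CTRL: without that mouse 0 were higher, 1 was lower and the median was 0.07. The count was 1 when CSDS mouse 9 or CTRL mouse 22, 27, 28, 29, 35 or 39 was left out, and 1 without mice 9 and 13. Meningeal fibroblast genes went the other way, with 1 of 11 positive, 1 lower (Aldh1a2, a retinoic acid enzyme, LFC -0.73, SE 0.29) and a median of -0.29. With 1 mouse left out the number lower ran from 0 (CTRL mouse 29) to 5 (CSDS mouse 4), with 4 for CTRL mouse 27 or 28 and 3 for CSDS mouse 9 or 15.

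**Figure D4:**
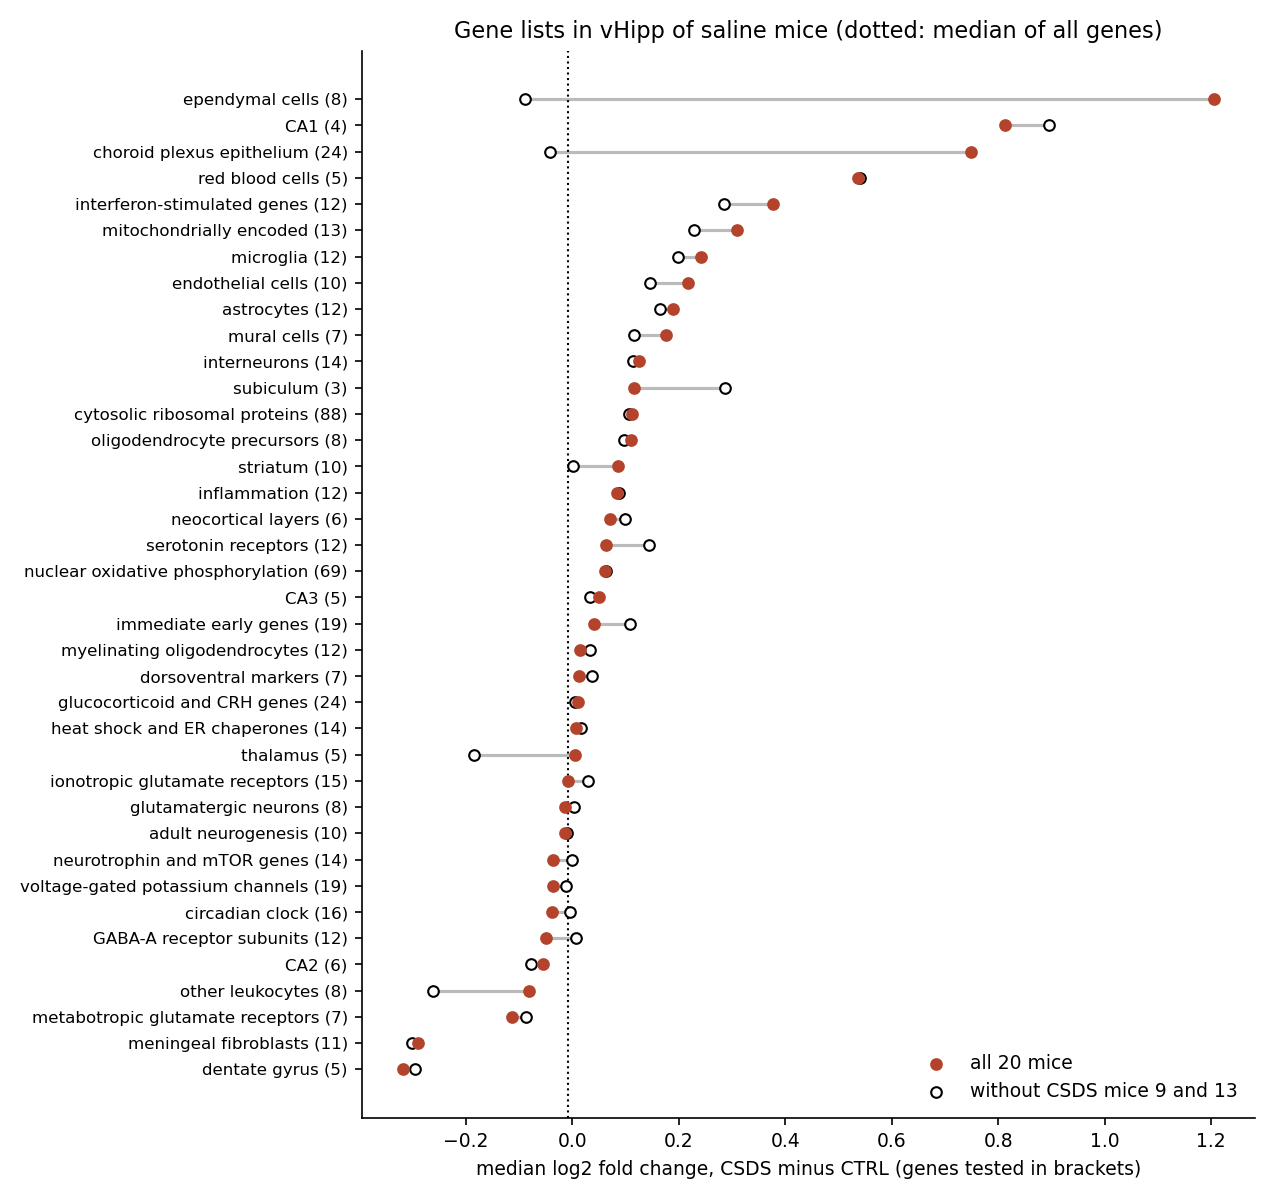
Median LFC of each of 38 gene lists with all 20 mice (filled) and without CSDS mice 9 and 13 (open), with the number of genes tested in brackets and the median of all genes as a dotted line. The choroid plexus and ependymal medians go from 0.75 to -0.04 and from 1.21 to -0.09, while the CA1 median goes from 0.81 to 0.90.

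The CA1 list had a positive median LFC and the dentate gyrus list a negative one, the difference between the lists was not tested, and the share of each subfield in a punch cannot be told apart from the level in its cells. All 4 genes of the CA1 list were higher at an unadjusted p under 0.05, against 3.07% of all genes higher and 2.5% lower, with a median LFC of 0.81. Fibcd1, a transmembrane chitin receptor, ran from 16.6 to 203 CPM in CSDS (median 53.96) and from 9.45 to 96.4 CPM in CTRL (median 25.3), with an LFC of 1.33 (SE 0.54, edgeR adjusted p = 0.846). Mpped1 had an LFC of 0.72 (SE 0.29), Pou3f1, a POU factor, one of 0.90 (SE 0.42) and Wfs1, an endoplasmic reticulum protein, one of 0.60 (SE 0.29). The ranges overlapped for each of them. Mpped1, Wfs1 and Pou3f1 are not particular to CA1 in this series, since their medians in mPFC were 272, 157 and 24.7 CPM, the last against 25.3 CPM in vHipp. The CA1 result did not depend on the choroid plexus libraries, as 4 of 4 were higher without mice 9 and 13. It did depend on CSDS mouse 4, which had the highest summed level, 701 CPM against at most 457 CPM in the other CSDS mice and 321 CPM in CTRL. Without mouse 4, 0 of 4 passed an unadjusted p of 0.05 and the median was 0.61. Leaving out CTRL mouse 24, 27, 28, 29, 33 or 38 in turn left 2 of 4. In the dentate gyrus list 0 of 5 had a positive LFC, 1 was lower, and the median was -0.32. Without mice 9 and 13, 0 were lower, 1 of 5 was positive and the median was -0.29, and with 1 mouse left out 1 or 2 were lower. C1ql2 was the lower one (LFC -0.51, SE 0.20), and Prox1 had an LFC of -0.36 (SE 0.22). Mouse 4 also had the lowest dentate gyrus sum, 107.9 CPM, against at least 217 CPM in CTRL. The lists for CA2, CA3 and subiculum had 0 genes higher or lower.

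**Figure D5:**
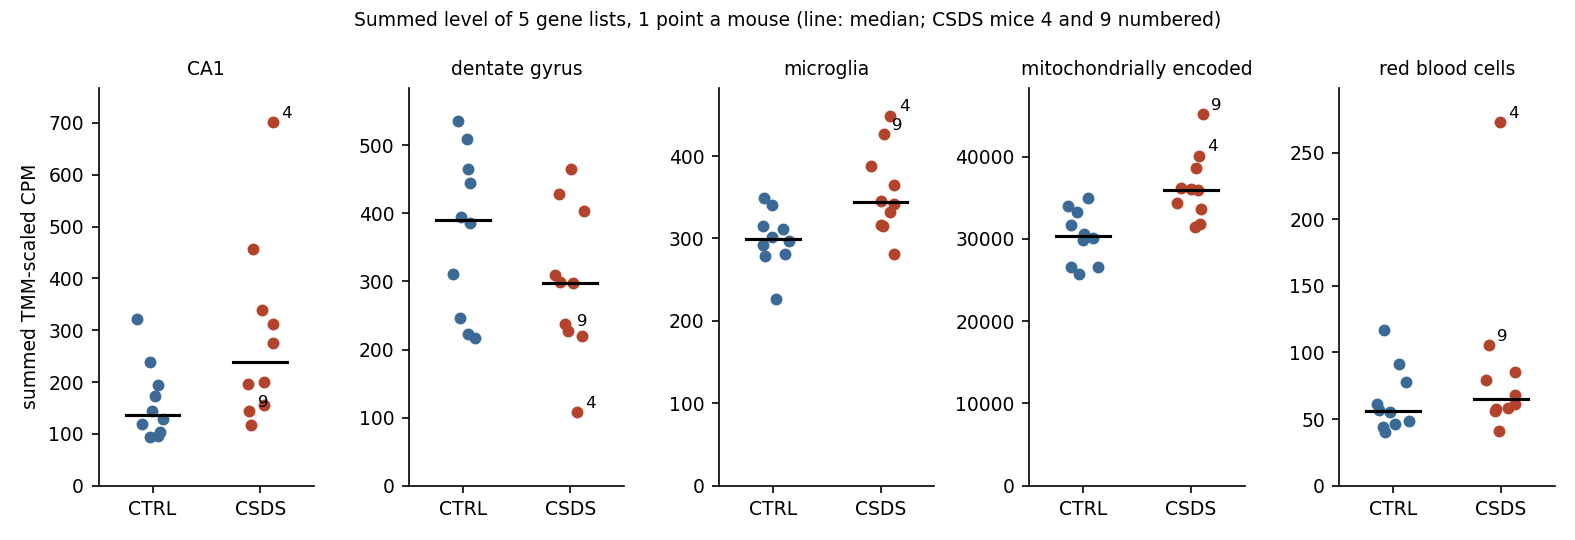
Summed TMM-scaled CPM of 5 gene lists in each saline vHipp library, 1 point per mouse, with the group median as a line and CSDS mice 4 and 9 numbered. The CA1 medians are 238 (CSDS) and 136.04 CPM (CTRL), the dentate gyrus medians 298 and 390 CPM, and mouse 4 stands alone in the red blood cell panel at 273 CPM.

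Few genes of signalling often studied in stress were at an unadjusted p under 0.05, the share over all genes being 3.07% higher and 2.5% lower for every list here. Of 24 genes of glucocorticoid and corticotropin-releasing hormone action, 0 were higher and 1 was lower at an unadjusted p under 0.05, Plin4, a lipid droplet protein (LFC -0.70, SE 0.25). The median of that list was 0.01. Of 19 immediate early genes 1 was higher (Arc) and 1 lower (Jun). The number higher was 4 without mice 9 and 13. It was 5 when CSDS mouse 7 or CTRL mouse 22 or 30 alone was left out, 4 for CSDS mouse 18, and 3 for CSDS mouse 9 or 10 or CTRL mouse 35. Nr4a1, an orphan nuclear receptor, had an LFC of 0.35 (SE 0.17). Of 12 serotonin receptor genes 3 were higher and 0 lower, and 1 was higher without CSDS mouse 4. Htr1b, which encodes a serotonin receptor, ran from 2.42 to 12.4 CPM in CSDS and from 1.58 to 5.36 CPM in CTRL. Its LFC was 0.79 (SE 0.27), with mouse 4 highest. Htr5b had an LFC of 1.26 (SE 0.48) and Htr3a, the ion channel receptor of interneurons, one of 0.31 (SE 0.15). Of the 12 interferon-stimulated genes 1 was higher (Isg15, LFC 0.75, SE 0.34), and mouse 4 was again the highest, at 2.02 CPM. The list had a median LFC of 0.38. Without mouse 4 it had 0 higher and a median of 0.051, it had 0 higher without CTRL mouse 28 or without mice 9 and 13, and 3 higher without CTRL mouse 24. No member was higher or lower at that level in the lists of neurotrophin and mTOR genes (14), ionotropic (15) and metabotropic (7) glutamate receptors, GABA-A receptor subunits (12), circadian clock (16), heat shock and chaperones (14), adult neurogenesis (10), interneurons (14), oligodendrocyte precursors (8) and myelinating oligodendrocytes (12). With 1 mouse left out, the most members at that level in one direction in any of these lists was 2. Without mice 9 and 13, 1 interneuron gene was higher. In the glutamatergic neuron list 1 of 8 was higher, Camk2a, the calcium-dependent kinase of excitatory synapses (LFC 0.23, SE 0.10), and in the astrocyte list 1 of 12, the calcium-binding protein S100b (LFC 0.32, SE 0.14). Of the 12 astrocyte genes 11 were positive, with a median of 0.19. None of them was at that level without mice 9 and 13, or without CSDS mouse 4 or 19 or CTRL mouse 29 or 38 alone, and 3 were without CSDS mouse 7. In the striatal list 3 of 10 were higher and 1 was lower, but 1 was higher without mice 9 and 13 and 1 without CSDS mouse 4 alone. Of these Adora2a, the adenosine receptor of striatal neurons, had an LFC of 0.62 (SE 0.27) and Rgs9, a G-protein regulator, one of -0.54 (SE 0.21).

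Whether the defeat effect differed after ketamine was tested as the saline difference minus the ketamine difference in vHipp. This gave 0 genes with an adjusted p under 0.05 (smallest 1.00, edgeR) and 823 genes (2.84%) with an unadjusted p under 0.05, and DESeq2 gave 0 and 523. The ketamine groups had 1572 genes (5.42%) at that level on their own. Egfl6 had an LFC of 0.68 in saline and -0.17 in ketamine mice, a difference of 0.86 (SE 0.25, unadjusted p = 0.00147, edgeR adjusted p = 1.00). Ctu1 had -0.27 and 0.09 (unadjusted p = 0.00269 in edgeR). Kcns3 had 0.41 and 0.19, a difference of 0.21 (SE 0.13) that did not reach an unadjusted p of 0.05, and Itgam 0.55 and 0.31. For the choroid plexus list the ketamine groups had 1 gene higher, 0 lower and a median LFC of 0.07. For the mitochondrially encoded genes they had 5 higher, 0 lower and a median of 0.27, and for microglia 6 higher, 0 lower and a median of 0.26.

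The mPFC of the same saline mice was set against vHipp in one fit of all libraries. That fit took both libraries of a mouse as independent, and its p-values below carry that limit. With the mouse as a block instead, 0 genes had an adjusted p under 0.05 (smallest 0.450, edgeR). The LFC of each region comes from a fit of that region alone, so a difference need not equal that of the LFCs. The difference between the regions in the defeat effect had 0 genes under an adjusted p of 0.05 (smallest 0.668, edgeR) and 1734 of 31534 (5.5%) under an unadjusted 0.05. In mPFC alone 852 genes (2.94%) were at that level and 0 were adjusted. Kcns3 had an LFC of -0.15 (SE 0.11) in mPFC, a difference of 0.54 from vHipp (unadjusted p = 0.000431, edgeR adjusted p = 0.786). Itgam had an LFC of -0.05 (SE 0.11) there and mt-Co2 one of -0.28 (SE 0.18). Arc had an LFC of 0.47 (SE 0.28) in mPFC and 0.38 in vHipp. The choroid plexus list had 0 genes higher or lower in mPFC, with a median LFC of -0.11, and the mPFC library of mouse 9 had 0.956 CPM of Ttr.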

How the data were processed

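RNA of vHipp and mPFC from 40 mice was sequenced by the authors (79 libraries, stranded poly(A) preparation, paired reads). The authors deposited one table of raw counts per gene, with bcl2fastq 2.20.0.422 and GRCm38 named in the submitters' processing notes. The aligner and the counter are not given in the sources used here. Of 55471 gene identifiers 55144 carried a symbol. Groups were taken from the labels.

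From the counts, edgeR 4.0.16 (R 4.3.3) was run with TMM factors on the 40 vHipp libraries in 4 groups, over 28991 genes with a total above 10 and counts in more than 3 libraries. Its quasi-likelihood test was 2-sided with Benjamini-Hochberg adjustment. The SE is the LFC divided by the square root of the F statistic. DESeq2 1.42.0 and limma 3.58.1 were alternatives, besides leaving out mice and adding the set, the run or the choroid score. A set is a block of contiguous library numbers with a run of 4 CSDS and a run of 4 CTRL mouse numbers; the social box of each mouse and its rank are not in the labels, and mice of 1 cage may not be independent. The mice with the highest Ttr level were left out together, a choice made on measured values. Named genes were those with the smallest p (10 per direction at a mean of at least 1 CPM, 5 in each of 2 alternative fits), the choroid plexus genes and up to 3 of every other list; 1 microglial gene is not reported here by name. Members and lists were chosen with earlier results of these data known. The summed choroid plexus level is given without a test, although a permutation test had been planned for it. Both libraries of a mouse carry its number, so the comparison of regions was also fitted with the mouse as a block: over 15540 genes the deviations of both regions correlated above 0.1 in 19 of 20 mice (median 0.27). The scripts were tested on simulated data.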

Additional observations from a re-analysis of the deposited data

Results flagged for a closer look

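Single mice lay far from the rest of their group, by Dixon's criterion for 10 values, in 32 checks of a named gene or a summed list in a group. Chance gives about 1 in 20 for independent, normally distributed values. CPM are skewed, and the genes checked share samples, lists and a choice that used their values, so that share is no expected number for these checks. Mouse 9 of CSDS accounted for 14 and mouse 4 of CSDS for 8.

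In CSDS mouse 9 these were Ttr (654 CPM, next 66.1), Tmem72 (7.43 CPM, next 2.29), Clic6 (10.8 CPM, next 2.78), Slc4a5 (4.13 CPM, next 0.436), Kcne2 (2.85 CPM, next 0.251), Kcnj13 (3.41 CPM, next 0.854), Folr1 (5.70 CPM, next 0.926) and Dynlrb2 (0.782 CPM, next 0.252). The summed choroid plexus list was 788 CPM there. The mitochondrial genes mt-Co2 (619 CPM, next 383), mt-Co3 (445 CPM, next 242) and mt-Atp6 (435 CPM, next 267), and the pseudogenes Gm28437 (819 CPM, next 485) and Gm29216 (890 CPM, next 576), were also far above the other CSDS mice.

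In CSDS mouse 4 they were Wfs1 (215 CPM, next 89.8), Htr1b (12.4 CPM, next 6.34), Kcnj8 (3.82 CPM, next 2.94), Isg15 (2.02 CPM, next 0.838), Alas2 (10.3 CPM, next 3.29) and Hbb-bs (152.5 CPM, next 53.04), with the summed meningeal fibroblast list (424 CPM, next 251) and the summed red blood cell list (273 CPM, next 105.3).

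Among CTRL mice, mouse 38 had the highest Ttr (7.61 CPM, next 1.13) and Tmem72 (0.236 CPM, next 0.102). Mouse 30 had the highest Fibcd1 (96.4 CPM, next 43.7) and Mpped1 (142.2 CPM, next 80.3), and mouse 35 the highest Wfs1 (106.7 CPM, next 55.3). Mouse 24 had the highest Htr3a (12.7 CPM, next 8.56) and Hbb-bs (63.8 CPM, next 42.5). Mouse 29 had the highest Dynlrb2 (0.197 CPM, next 0.105) and the lowest Cx3cr1 (27.4 CPM, next 36.4), and mouse 33 the highest Gm5903 (3.39 CPM, next 2.199). What sets these animals apart was not tested.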

How the results depend on the processing

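The depth leaves genes of low level with wide intervals, and 10 mice per group limit every LFC. The count of genes at an unadjusted p under 0.05 (1615) ran from 1354 to 1998 when each mouse was left out in turn, the lowest without CSDS mouse 4, and was 973 with filterByExpr, which tests 18024 genes. The adjusted count was 0 except for 1 gene with DESeq2 and the set (Kcns3) and 1 gene with the choroid score (Gm12580, adjusted p = 0.0269). The LFC of Ttr reversed to -1.59 without CSDS mice 9 and 13 and ran from 2.88 to 7.69 with 1 mouse left out. It was 4.47 with DESeq2, 3.96 with DESeq2 and the set, 4.30 with edgeR and the set, and 1.20 with limma and the run of 4 mice. The median LFC of the choroid plexus list was -0.042 without both mice, 0.064 with the choroid score, and from 0.13 to 0.90 with 1 mouse left out, the lowest without mouse 9. It was 0.27 with limma and the run and 0.44 with filterByExpr. The mean log2 level of the summed list differed by 0.52, and by -0.07 without both mice. Slc4a5 reversed to -0.30 without both mice. Folr1 reversed to -0.79 without both mice, -0.55 with the choroid score, -0.092 with DESeq2, and ran from -0.045 (without mouse 9) to 1.99 with 1 mouse left out; the cause was not tested. With limma and the run of 4 mice as a random effect (correlation 0.05) 1332 genes had an unadjusted p under 0.05 and the smallest adjusted p was 0.991. The saline minus ketamine count was 523 with DESeq2 and 870 without both mice. With the mouse as replicate block the region count was 1980, over 29227 genes, and the block changed no adjusted call. Without both mice, calls were 48.8% higher against 55.1% with all mice, and 43.6% with the choroid score.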

Other observations

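Some genes appeared among the leaders once the choroid plexus libraries were set aside. Gjb2, a gap junction protein of meningeal cells, ran from 2.43 to 9.10 CPM in CSDS and from 4.13 to 10.47 CPM in CTRL. Its LFC was -0.56 (SE 0.23) with all mice, -0.70 without CSDS mice 9 and 13 and -0.75 with the choroid score in the fit. Slc6a13, a GABA and taurine transporter of the meninges, had -0.48 (SE 0.24) with all mice and -0.60 without both. Of the 11 meningeal genes 2 were lower at an unadjusted p under 0.05 without both mice, against 2.32% of all genes. With the choroid score 4 were lower, against 2.59% of all genes. Without CSDS mouse 4 alone 5 were lower, at a median LFC of -0.43, with 622 of 28877 genes lower in that fit. The count was 4 without CTRL mouse 27 (857 of 28921 genes lower) or CTRL mouse 28 (686 of 28923). What moves this count was not tested.

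Pgf, the placental growth factor, and Kdr, a VEGF receptor of endothelium, were looked at after their values were seen. Pgf had an LFC of 0.41 (SE 0.12) and Kdr one of 0.50 (SE 0.15), both with an edgeR adjusted p of 0.825. Nos2, the inducible nitric oxide synthase, was also picked after its values were seen: it had an LFC of -1.22 (SE 0.35) with all mice and -1.69 without mice 9 and 13, at a median level of 0.324 CPM in CTRL and 0.0908 CPM in CSDS.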
